A study of Homo sapiens with 24 samples.

Results

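The genes described here encode the proteasome: its subunits, regulators, inhibitor and dedicated assembly factors. They were taken from the count table by symbol, as names that begin with PSMA, PSMB, PSMC, PSMD, PSME, PSMF or PSMG followed by a number. Of 54 symbols that began this way, 5 names with a hyphen (antisense transcripts) and PSMC3IP, a recombination factor whose name has letters after the number, were left out, which gave 48 symbols. A mean of at least 5 counts over the 24 libraries was met by 43 of these 48, out of 27311 symbols in the table. The 43 members comprised 7 alpha and 7 standard beta subunits of the 20S core, 5 ATPase and 11 non-ATPase subunits of the 19S regulatory particle, PSMB10 of the immunoproteasome, the 4 PSME activator genes, the inhibitor PSMF1 and 7 assembly chaperones. The 5 symbols below the minimum were PSMB9 (mean 1.3 counts), PSMB8 (1.0), PSMA8 (0.2), PSMC1 and PSMB11, and the last of these was listed at 0 in every library, as was PSMC1. PSMC1 encodes a 19S ATPase that proteasomes in all cells need, so its 0 says only how the table lists it, and the 19S sums and ratios given here lack this subunit. PSMC6, with a mean of 6.2 counts, was the member just above the minimum.

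The 20S core is a barrel of stacked rings in which the outer alpha rings gate access and the beta rings hold the proteolytic sites. The 19S particle caps the barrel, binds ubiquitinated proteins, removes the ubiquitin and unfolds the substrate with its ring of ATPases, and together they form the 26S proteasome. Interferon-induced beta subunits can replace the standard catalytic ones to give the immunoproteasome, and the PSME-encoded activators cap the barrel in place of the 19S particle. Maturing red cells depend on ubiquitin-dependent degradation to clear proteins that are no longer needed, and GATA1 is the transcription factor that drives the erythroid programme.

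K562 is a suspension line from a human erythroleukemia, with embryonic and fetal globin expression. All libraries came from 200000 cells transfected with 1 Ambion Silencer Select siRNA and grown for 48 h, and the mRNA was read at its 3′ ends by BRB-seq, a pooled RNA-seq method. The GATA1 siRNAs were siGATA1-1 (catalog s5593) at 25 nM and siGATA1-2 (s5594) at 6.25 nM, with 4 libraries each. The non-targeting siRNAs siNC-1 (4390844) and siNC-2 (4390847) were used at both doses with 4 libraries per siRNA and dose, so each GATA1 siRNA had 8 dose-matched control libraries. Since siGATA1-1 and siGATA1-2 differed in sequence and also in dose, these cannot be told apart when the siRNAs are compared. The sources used here do not say whether replicates came from separate cultures, so the p-values measure the spread between libraries, which may be technical.

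The libraries held 88290 to 473098 counts, and proteasome genes made up 0.672 to 0.872% of them (median 0.786%). One count was worth 2.17 to 13.0 CPM (counts per 1e6, after TMM scaling), the unit of level used throughout. GATA1 itself was 289 ± 31.9 CPM (SD, n = 4) with siGATA1-1 against 569 ± 101 in its 8 controls, and 244 ± 71.4 with siGATA1-2 against 543 ± 47.2. No GATA1 siRNA library reached the lowest control at its dose (exact two-sided permutation p = 0.00202 for each, the smallest that 495 arrangements allow). All of 11 K562 and erythroid markers, GATA1 among them, were detected. Their summed level was 13758 to 18022 CPM with siGATA1-1 against 20208 to 25622 CPM in its controls. With siGATA1-2 it was 13456 to 19726 CPM against 26306 to 31716 CPM in its controls. The controls of the 2 doses thus did not overlap. In a culture sampled in bulk, fewer cells of a type and less RNA per cell cannot be told apart. Levels of different genes are compared below as CPM of 3′-end counts, which are not divided by transcript length because each transcript is read at its end.

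Promoter sequence was available for 37 of the 43 members, from RefSeq on GRCh38.p14, as windows from 250 bases before to 50 bases after a start site (45 windows in all). The windows were searched on both strands for TGACNNNGC, the core of the antioxidant response element through which NFE2L1 and NFE2L2 activate proteasome genes, for AGATAA and TGATAA, which GATA factors bind, and for CCAAT, the NF-Y box. Both GATA words share their last 5 letters and so exclude each other on 1 strand at 1 position. The promoters of PSMG1, the only member called in a GATA1 comparison, and of PSMB9, the immunoproteasome gene with the largest shift in counts, are shown with these motifs in capitals, 5′ to 3′ along the gene's strand. The PSMG1 window is chr21:39183402-39183701 on the minus strand and the PSMB9 window is chr6:32853942-32854241 on the plus strand.
PSMG1: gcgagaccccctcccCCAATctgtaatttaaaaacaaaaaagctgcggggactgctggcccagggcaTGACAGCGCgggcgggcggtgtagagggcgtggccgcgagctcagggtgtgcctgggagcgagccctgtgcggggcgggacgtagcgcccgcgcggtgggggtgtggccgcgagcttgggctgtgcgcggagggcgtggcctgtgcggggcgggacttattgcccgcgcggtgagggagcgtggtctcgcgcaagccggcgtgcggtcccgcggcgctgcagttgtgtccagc
PSMB9: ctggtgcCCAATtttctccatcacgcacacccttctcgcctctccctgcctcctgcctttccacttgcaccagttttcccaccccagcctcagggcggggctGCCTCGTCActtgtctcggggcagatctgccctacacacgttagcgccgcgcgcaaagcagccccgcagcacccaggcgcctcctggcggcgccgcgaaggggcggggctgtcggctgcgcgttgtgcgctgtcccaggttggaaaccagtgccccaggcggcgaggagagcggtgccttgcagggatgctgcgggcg
In PSMG1 the TGACNNNGC match began at -183 and the CCAAT match at -235 from the start site. In PSMB9 the TGACNNNGC match lay on the opposite strand at -148, where its letters read in reverse complement, and CCAAT stood at -243. Neither window held a GATA word. Across the members, TGACNNNGC was present in 14 of 45 windows (31.1%) against 13.3% of all 35116 promoter windows of the same length, and in 14 of 37 genes (37.8%) against 16.1% of genes. CCAAT was present in 18 of the 45 windows against 34.6% of all windows. A GATA word was present in 1 of the 45 windows (2.22%), that of the 19S ATPase gene PSMC6, against 16.3% of all windows. These matches describe the letters of the windows only.

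In the 16 control libraries the most abundant member was PSMB1, a non-catalytic beta subunit, at 624 ± 54.7 CPM (SD). The alpha subunit PSMA7 (590 ± 83.4), the trypsin-like catalytic subunit PSMB7 (485 ± 130), PSMA1 (443 ± 80.8) and PSMB4 (358 ± 49.9) followed. The first 5 places were thus held by 20S core genes. The lowest levels were those of PSMG3, an assembly chaperone (57.7 ± 24.6 CPM), PSMD12, a 19S lid subunit (53.1 ± 24.9), and PSMC6, a 19S base ATPase (22.4 ± 12.8). Within the 20S alpha ring, whose 7 proteins are present in equal number, the means ran from 95.6 ± 32 CPM for PSMA6 to PSMA7. Neighbours in this order overlapped in their ranges over the control libraries. The median coefficient of variation within groups ran from 8.25% for PSMB1 (mean 146 counts) to 53.6% for PSMC6 (mean 6.2 counts).

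**Figure D1:**
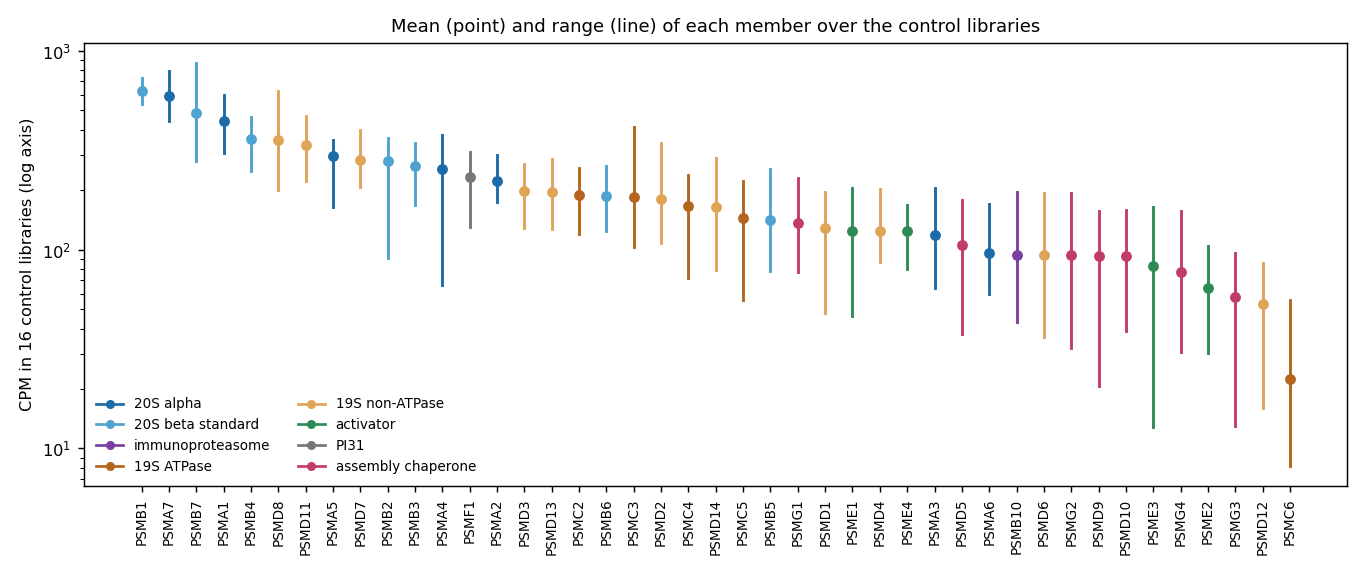
Level of each of the 43 members in the 16 control libraries, in CPM on a log axis, ordered by the mean. Points are means, lines run from the lowest to the highest library, and colours give the class of the gene. PSMB1 stands highest at 624 CPM and PSMC6 lowest at 22.4 CPM.

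Of the 43 members, 42 had enough counts to be tested (PSMC6 did not), among 6738 genes in all. The tests were edgeR quasi-likelihood tests with Benjamini-Hochberg adjustment over the 6738 genes, and a gene was called at an adjusted p under 0.05. With siGATA1-1 at 25 nM no member was called, while 0.386% of all genes were called higher and 0.341% lower. At an unadjusted p under 0.05 there were 2 members in that comparison, 1 in each direction, against 6.38% of all genes, and DESeq2 and limma voom likewise called none. With siGATA1-2 at 6.25 nM no member was called higher, where 1.75% of all genes were, and 1 was called lower, PSMG1, where 1.28% of all genes were. In the mean effect of both siRNAs, that is the average of the 2 dose-matched log2 fold changes, no member was called higher (2.6% of all genes) and PSMG1 again was the single member called lower (1.88% of all genes). By DESeq2 and by limma voom the count of members called higher was 0 and of members called lower 1 in both of these comparisons. At an unadjusted p under 0.05, 4 members were lower and 0 higher with siGATA1-2 (15.8% of all genes in either direction), and 6 were lower and 0 higher in the mean effect (16.6%).

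The median log2 fold change of the 42 tested members was -0.01 with siGATA1-1, -0.11 with siGATA1-2 and -0.06 in the mean effect, beside 0.01, -0.01 and -0.00 over all genes tested. In the mean effect 28 of 42 members (66.7%) had a negative value, beside 50.3% of all genes. For siNC-1 against siNC-2, with no GATA1 siRNA, 26 of 42 (61.9%) were negative at 25 nM and 19 of 42 (45.2%) at 6.25 nM. The 95% interval of the mean effect stayed within a 2-fold change in either direction for 39 of the 42 members and within 1.5-fold for 27. The exceptions at 2-fold, PSMG1, PSMG2 and PSMD6, all had intervals that reached a 2-fold fall. For siGATA1-1 and siGATA1-2 taken singly, 37 and 34 of the 42 intervals stayed within 2-fold.

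**Figure D2:**
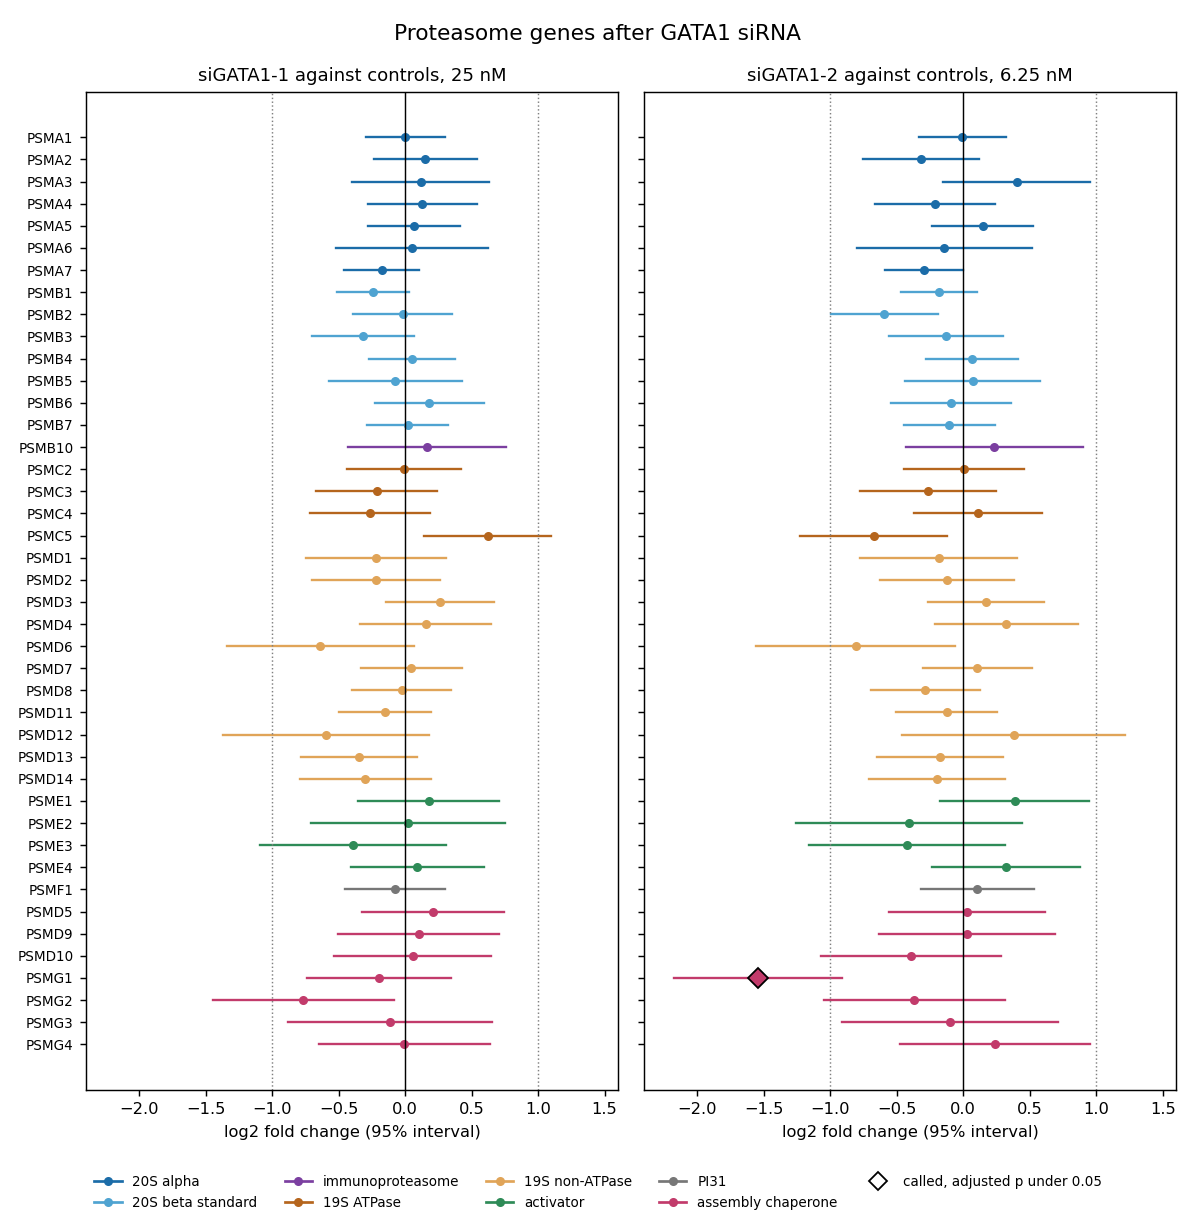
Log2 fold change of the 42 tested members with siGATA1-1 at 25 nM (left) and siGATA1-2 at 6.25 nM (right) against the dose-matched controls. Points are estimates, lines are 95% intervals, dotted lines mark a 2-fold change, colours give the class, and a diamond marks an adjusted p under 0.05. PSMG1 with siGATA1-2, at -1.54, carries the single diamond.

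Among the 14 genes of the 20S core none was called in any of the 3 GATA1 comparisons by edgeR, DESeq2 or limma voom. Their summed level was 4254 ± 213 CPM (SD, n = 4) with siGATA1-1 against 4387 ± 237 in its 8 controls, and 3945 ± 288 CPM with siGATA1-2 against 4317 ± 306. The ranges overlapped at both doses. The median log2 fold change of the 14 genes was -0.04 in the mean effect, with single genes from -0.31 (PSMB2) to 0.26 (PSMA3). PSMA3 overlaps an antisense gene, PSMA3-AS1, and reads from the pair cannot be told apart because the sources used here do not give the use of strand in counting.

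PSMB2 encodes a non-catalytic beta subunit. Its level was 204, 252, 198 and 193 CPM in the siGATA1-2 libraries and 258 to 362 CPM (median 328) in the 8 controls at 6.25 nM, so the groups did not overlap. With siGATA1-1 it was 279, 199, 248 and 229 CPM against 90.7 to 304 CPM (median 245), within the control range. The siGATA1-2 libraries also lay within this range of the 25 nM controls. Its lowest value, 90.7 CPM, was 7 counts in the shallowest library, siNC-2 replicate 1. The log2 fold change of PSMB2 was -0.60 (SE 0.20) with siGATA1-2, which missed the threshold (edgeR adjusted p = 0.0932), and -0.02 (SE 0.19) with siGATA1-1 (adjusted p = 0.996). Over 35 alternative fits the siGATA1-2 value ran from -0.71 to -0.39, with adjusted p from 0.0513 to 0.26. Together with PSMG1, PSMB2 made up the 2 members whose 4 siGATA1-2 libraries all lay below all 8 controls, where 0.994% of all genes did so and 1.29% lay wholly above. With siGATA1-1 no member was wholly below or above its controls (0.92% and 0.89% of all genes).

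None of the 3 standard catalytic subunits differed from its controls beyond the replicate spread. PSMB5, the chymotrypsin-like subunit, was 113 ± 29.1 CPM with siGATA1-1 against 114 ± 21.1 in its controls, and 180 ± 54.6 CPM with siGATA1-2 against 167 ± 52.1. Its mean effect was -0.00 (SE 0.17, adjusted p = 0.997). PSMB6, the caspase-like subunit, had a mean effect of 0.04 (SE 0.15, adjusted p = 0.932) and PSMB7 one of -0.04 (SE 0.12, adjusted p = 0.907). The 95% intervals of all 3 stayed within a 1.5-fold change.

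The immunoproteasome genes differed widely in level. PSMB10, the counterpart of PSMB7, was the 1 of 3 that met the minimum of counts, at 94.3 ± 41.4 CPM over the 16 controls. PSMB8, the counterpart of PSMB5, and PSMB9, the counterpart of PSMB6, stood near the limit of a single count per library. PSMB10 was 106 ± 18.8 CPM with siGATA1-1 against 102 ± 43.3, and 100 ± 44.9 CPM with siGATA1-2 against 87.0 ± 40.8. Its mean effect of 0.20 (SE 0.23) was not called (edgeR adjusted p = 0.737).

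PSMB9 had 3, 4, 2 and 2 counts in the siGATA1-1 libraries and 4, 0, 6 and 2 in the siGATA1-2 libraries. The controls at 25 nM had 1, 1, 0 and 4 counts with siNC-1 and 0, 0, 0 and 1 with siNC-2, and the controls at 6.25 nM had 0, 0, 0 and 0 with siNC-1 and 0, 1, 0 and 0 with siNC-2. A count was thus present in 7 of 8 GATA1 siRNA libraries and in 5 of 16 controls, and the groups overlapped at both doses. Summed over libraries, 23 counts in the GATA1 siRNA libraries came to 11.4 CPM of raw library size (95% exact Poisson interval 7.23 to 17.1), and 8 counts in the controls came to 1.85 CPM (0.80 to 3.64). The ratio of these summed levels was 3.13 at 25 nM (11 against 7 counts, 95% interval 1.11 to 9.52) and 28.9 at 6.25 nM (12 against 1 count, 4.28 to 1237). These intervals cover counting error only.

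Since PSMB9 lay below the minimum, its CPM were compared by an exact two-sided permutation test over libraries, which gave p = 0.00606 at 25 nM and p = 0.0182 at 6.25 nM. These belong to 6 such tests, run on PSMB8, PSMB9 and PSMB10 at both doses, and adjusted over the 6 by Benjamini-Hochberg the permutation p-values were 0.0364 and 0.0546, so the value at 6.25 nM did not pass 0.05. In an edgeR fit without the filter on low counts (19644 genes), PSMB9 was called higher with siGATA1-2 (adjusted p = 0.0323) and in the mean effect (adjusted p = 0.0093), and not with siGATA1-1 (adjusted p = 0.812). The mean-effect call was lost without siGATA1-2 replicate 3 (adjusted p = 0.0878), the library with 6 counts. The siGATA1-2 call held in 15 of 24 fits that left out 1 library, a check added after the values were seen. It was lost without siGATA1-2 replicates 1 (0.0674) and 3 (0.29), without each of siNC-1 replicates 5 to 8 at 6.25 nM (0.0567, 0.06, 0.0621 and 0.0667) and without siNC-2 replicates 5, 7 and 8 (0.0703, 0.0529 and 0.0652). The PSMB9 call therefore rested on few counts.

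Markers of another blood lineage, the myeloid, were summed over 7 genes. With siGATA1-1 the sum was 633 to 979 CPM (median 921) against 464 to 678 CPM (median 540) in its controls, so the ranges overlapped. With siGATA1-2 it was 657 to 1220 CPM (median 939) against 367 to 601 CPM (median 469), without overlap. Nearly all of the sum came from SPI1, TYROBP and LYZ, which were present in all 24 libraries and were not tested singly here. Of the other 4, MPO was at 0 in every library, CD14 and CSF1R had 2 counts each in all, and ITGAM had 23. Over both doses, lymphoid markers summed to 339 to 548 CPM in the GATA1 siRNA libraries against 204 to 622 in the controls. Epithelial and fibroblast markers summed to 125 to 273 CPM against 156 to 333, and endothelial markers to 0 to 8.54 CPM against 0 to 11.1. The part of these markers in the PSMB9 result was not tested. PSMB8 had 13 counts in the 8 GATA1 siRNA libraries and 11 in the 16 controls, with ratios of 2.49 (0.885 to 7.26) at 25 nM and 2.41 (0.323 to 18) at 6.25 nM, and permutation p-values of 0.125 and 0.475. Counts of PSMB8, PSMB9 and PSMB10 together made up 12.3 ± 1.95% of all catalytic subunit counts with siGATA1-1 against 10.9 ± 2.57% in its controls, and 14.3 ± 4.24% with siGATA1-2 against 10.2 ± 3.73%, with overlapping ranges.

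**Figure D3:**
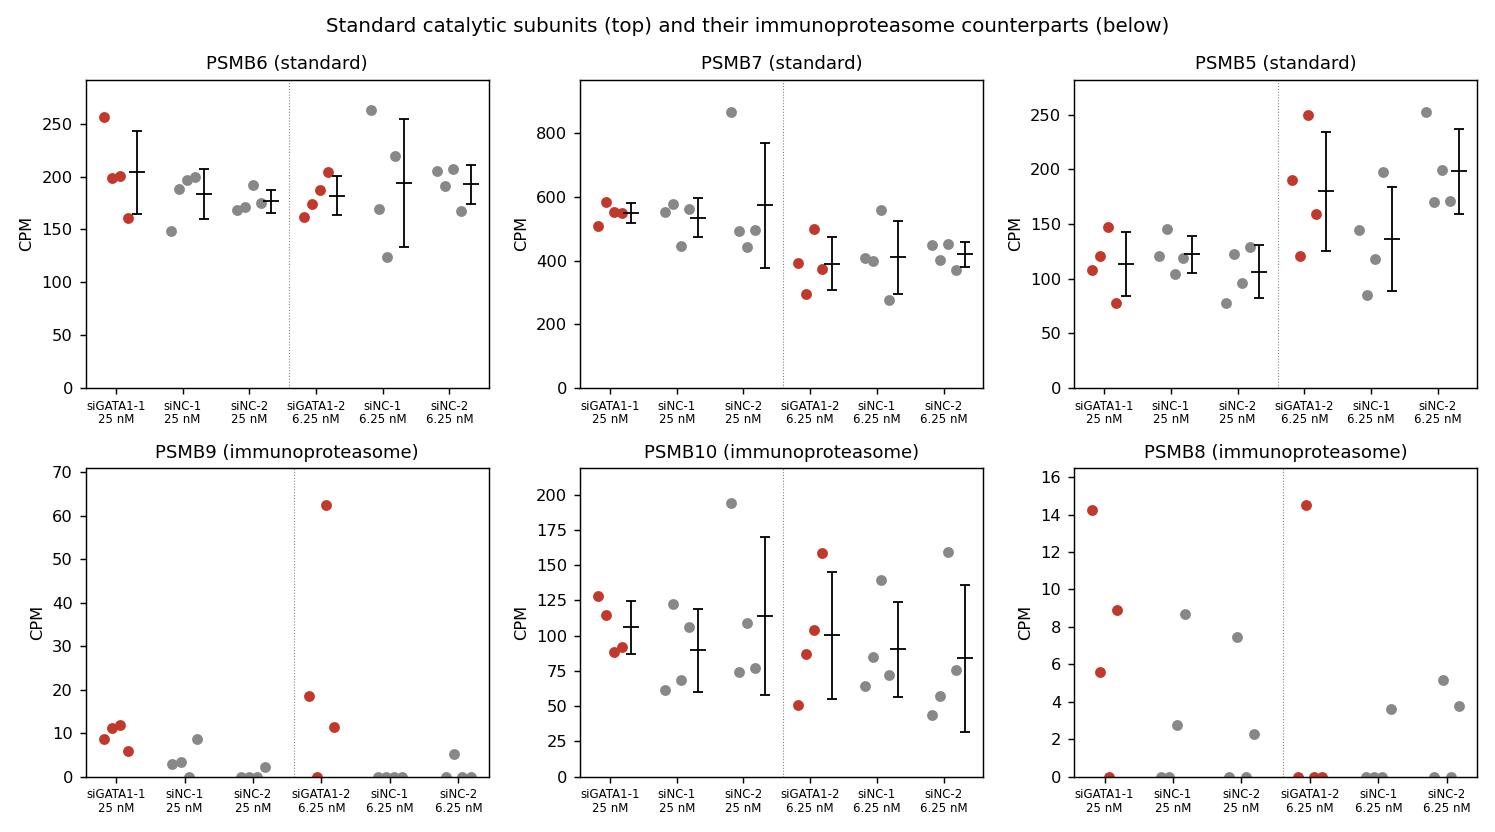
Levels in CPM of the standard catalytic subunits (top) and of the immunoproteasome gene that replaces each (below) in every library, by siRNA and dose. Red points are GATA1 siRNA libraries and grey points are controls, and black marks give the mean ± SD of 4 libraries except for PSMB8 and PSMB9, where most points are 0 to 6 counts. PSMB9 points lie above 0 in 7 of 8 GATA1 siRNA libraries and in 5 of 16 controls.

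None of the 15 tested genes of the 19S regulatory particle was called in the 3 GATA1 comparisons by edgeR, DESeq2 or limma voom. Their median log2 fold change was -0.21 with siGATA1-1, -0.13 with siGATA1-2 and -0.14 in the mean effect, and 12 of 15 values in the mean effect were negative. All 4 tested ATPase genes were among the negative ones there, from -0.24 (PSMC3) to -0.00 (PSMC2). Taken singly, siGATA1-1 gave negative values for 3 of these 4 and siGATA1-2 for 2. In the mean effect 10 of the 14 genes of the 20S core were negative as well, beside 50.3% of all genes. For siNC-1 against siNC-2, 10 of the 15 genes were negative at 25 nM and 7 of 15 at 6.25 nM. The summed 19S level was 2665 ± 175 CPM with siGATA1-1 against 2800 ± 132 in its controls, and 2615 ± 179 CPM with siGATA1-2 against 2819 ± 349. The ranges overlapped at both doses. The ratio of the 19S to the 20S sum was 0.627 ± 0.0380 against 0.640 ± 0.0480 at 25 nM and 0.663 ± 0.0168 against 0.654 ± 0.0792 at 6.25 nM.

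**Figure D4:**
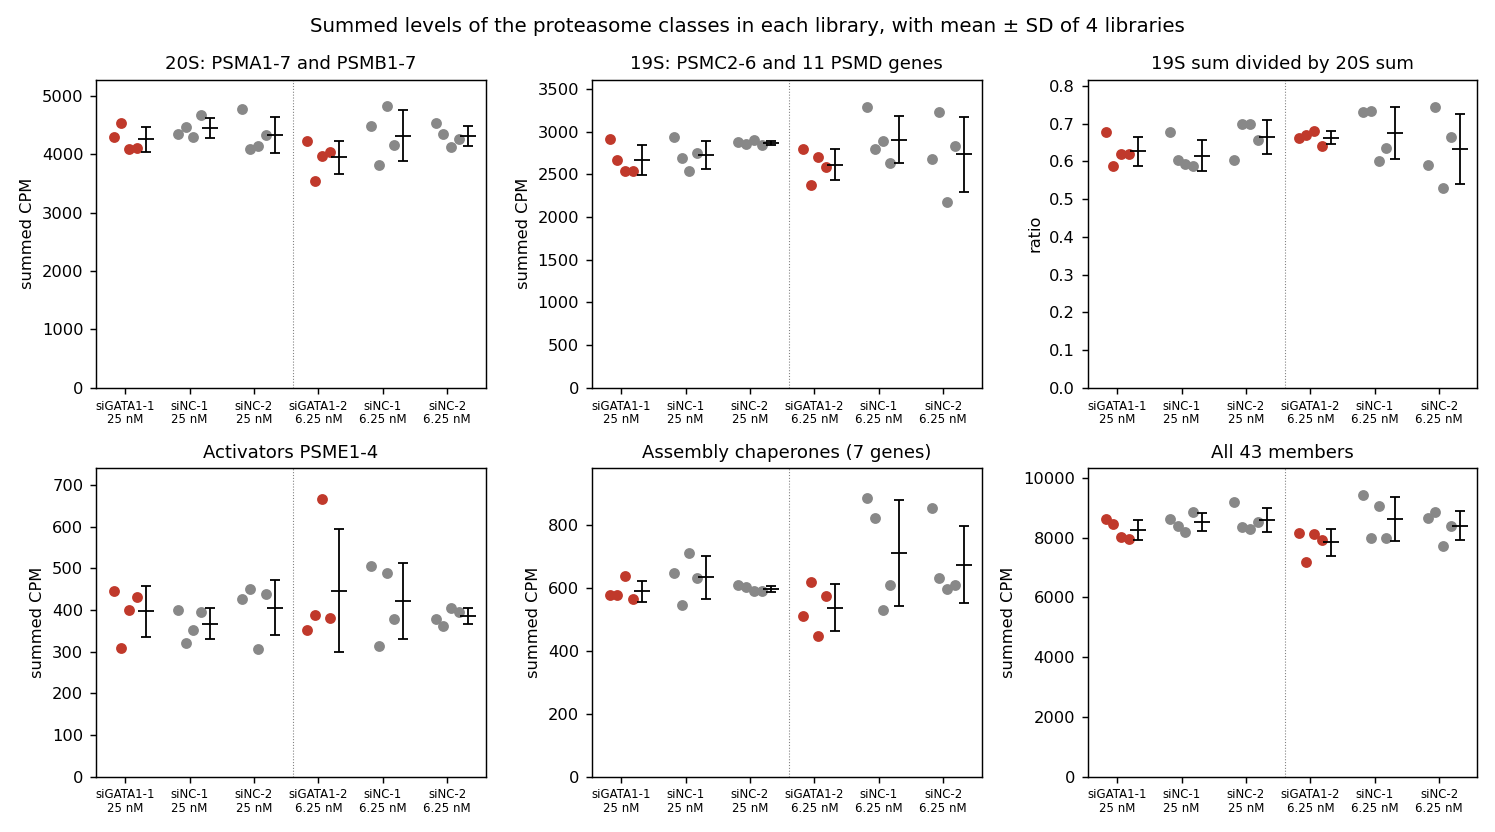
Summed CPM of the 20S genes, the 19S genes, the activators, the assembly chaperones and all 43 members, and the ratio of the 19S to the 20S sum, in every library. Red points are GATA1 siRNA libraries, grey points are controls, and black marks give the mean ± SD of 4 libraries. In all 6 panels the GATA1 siRNA points overlap those of their controls, for example 3547 to 4234 CPM of 20S genes with siGATA1-2 against 3811 to 4821 CPM.

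PSMD6 encodes a subunit of the 19S lid. Its level was 74.0, 56.0, 23.6 and 41.6 CPM with siGATA1-1 against 53.2 to 95.6 CPM (median 83.4) in the 25 nM controls, and 97.3, 87.1, 0 and 28.4 CPM with siGATA1-2 against 36.2 to 193 CPM (median 103). Both groups overlapped their controls. The 0 came from siGATA1-2 replicate 3, a library of 102225 counts in which 1 count was worth 10.4 CPM. The mean effect was -0.72 (SE 0.26) and was not called (edgeR adjusted p = 0.096), but it was called without siGATA1-2 replicate 1, the highest of the 4 (-0.92, adjusted p = 0.042). Over all fits that left out 1 library the mean effect ran from -0.92 to -0.59. PSMD6 has an antisense neighbour, PSMD6-AS2, with which its reads may be mixed.

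PSMC5, a 19S ATPase, had the highest value of all members with siGATA1-1 and the third lowest with siGATA1-2, and was singled out after its values were seen. It stood at 202, 160, 236 and 178 CPM with siGATA1-1 against 95.2 to 166 CPM (median 127) in the 25 nM controls. With siGATA1-2 it stood at 144, 62.9, 83.4 and 119 CPM against 55.7 to 222 CPM (median 164). The values pointed in opposite directions, at 0.62 (SE 0.24, adjusted p = 0.413) and -0.67 (SE 0.28, adjusted p = 0.198). The direct test of the difference between the siRNAs gave -1.29 (SE 0.37), with an unadjusted p of 0.000656 and an adjusted p of 0.631. Over all 6738 genes the percentage called in this difference was 0, and among the members it was 0 too by edgeR, DESeq2 and limma voom. At an unadjusted p under 0.05 there were 3 members in the difference, against 4.94% of all genes.

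None of the activator genes was called. PSME1 and PSME2 encode the alpha and beta subunits of PA28, the interferon-inducible activator linked to antigen processing, and their mean effects were 0.28 (SE 0.19, adjusted p = 0.503) and -0.19 (SE 0.28, adjusted p = 0.807). PSME1 stood at 131 ± 15.2 CPM with siGATA1-1 against 111 ± 41.6 and at 182 ± 88.5 CPM with siGATA1-2 against 138 ± 44.9. PSME3, the nuclear PA28 gamma, had a mean effect of -0.41 (SE 0.26, adjusted p = 0.444) from levels of 57.2 ± 16.9 CPM against 73.1 ± 33.6 and of 70.1 ± 31.4 CPM against 92.7 ± 34.0. PSME4, the nuclear activator PA200, had a mean effect of 0.21 (SE 0.19, adjusted p = 0.655). PSMF1, which encodes the inhibitor PI31, was 254 ± 21.5 CPM with siGATA1-1 against 268 ± 30.9 and 206 ± 29.5 CPM with siGATA1-2 against 192 ± 41.4, with a mean effect of 0.02 (SE 0.14, adjusted p = 0.976). PSME2 has pseudogene copies, and the sources used here do not give how reads shared with such copies were counted.

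PSMG1 encodes PAC1, a chaperone that pairs with the PSMG2 product PAC2 to assemble the alpha ring of the 20S core. Its level was 46.3, 62.9, 31.3 and 79.5 CPM in the siGATA1-2 libraries and 98.2 to 229 CPM (median 174) in the 8 controls at 6.25 nM. With siGATA1-1 it was 76.8, 86.8, 118 and 92.2 CPM against 76.8 to 130 CPM (median 107) in the 25 nM controls. All 4 siGATA1-2 libraries thus lay below every control of their dose, and the siGATA1-1 libraries overlapped their controls, whose lowest value was level with theirs. PSMG1 fell by 1.54 on the log2 scale with siGATA1-2 (SE 0.32, 95% interval -2.17 to -0.91, edgeR adjusted p = 5.97e-04), a change of -65.6%. With siGATA1-1 the value was -0.20 (SE 0.27, adjusted p = 0.994), and the mean effect was -0.87 (SE 0.21, adjusted p = 0.00407). The direct test of the difference between the siRNAs gave -1.34 (SE 0.42), with an unadjusted p of 0.00189 and an adjusted p of 0.724.

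The PSMG1 controls themselves stood apart by dose, at 106 ± 19.1 CPM (n = 8) at 25 nM and 166 ± 50.5 CPM (n = 8) at 6.25 nM, a log2 difference of -0.66 (SE 0.22, unadjusted p = 0.00316, adjusted p = 0.115). Set against all 16 controls of both doses, the siGATA1-2 value was -1.21 (adjusted p = 0.00627). The siGATA1-2 call was kept in all 35 alternative fits, with values from -1.75 to -1.21 and adjusted p from 2.29e-04 to 0.0112. These levels rested on 3 to 14 counts in the siGATA1-2 libraries and 15 to 58 in their controls.

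PSMG2, the partner of PSMG1, stood at 51.2, 36.4, 70.7 and 44.6 CPM with siGATA1-1 against 69.4 to 130 CPM (median 84.3) in the 25 nM controls. With siGATA1-2 it stood at 83.4, 96.8, 31.3 and 85.1 CPM against 31.8 to 191 CPM (median 80.1). The mean effect of -0.57 (SE 0.24) was not called (adjusted p = 0.195), with values of -0.77 for siGATA1-1 (adjusted p = 0.637) and -0.37 for siGATA1-2 (adjusted p = 0.663). The other 5 chaperone genes had mean effects from -0.17 (PSMD10) to 0.12 (PSMD5), none of them called. PSMD5, PSMD9 and PSMD10 encode chaperones of the 19S base, and PSMG3 and PSMG4 encode a second pair that acts on the 20S core. Summed over the 7 chaperone genes, the level was 589 ± 32.3 CPM with siGATA1-1 against 616 ± 48.9 and 538 ± 74.8 CPM with siGATA1-2 against 693 ± 138.

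**Figure D5:**
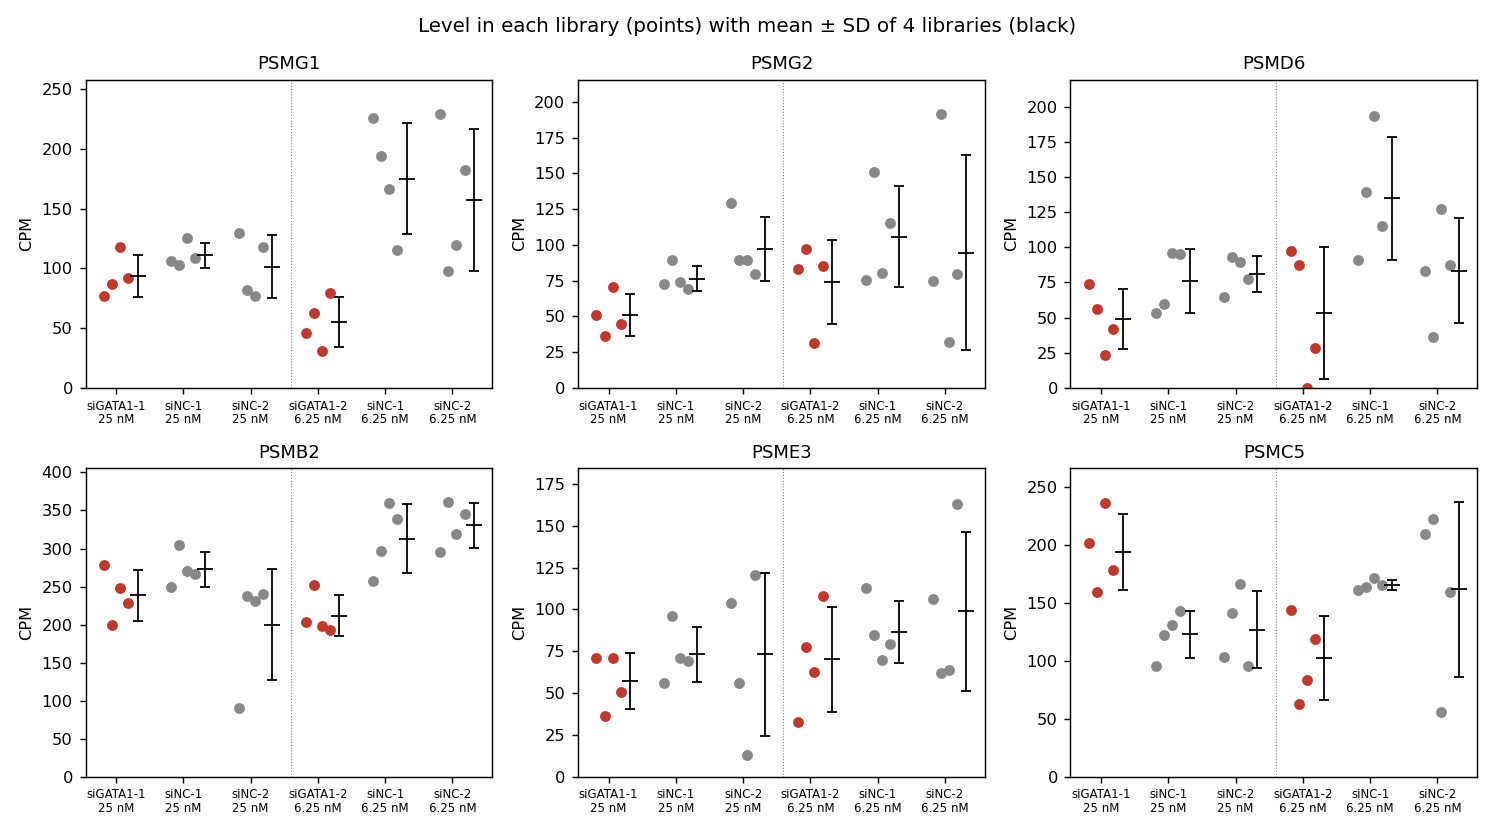
Levels in CPM in every library of the 5 members with the largest mean effects (PSMG1, PSMG2, PSMD6, PSMB2 and PSME3) and of PSMC5. Red points are GATA1 siRNA libraries, grey points are controls, and black marks give the mean ± SD of 4 libraries. The 4 siGATA1-2 points of PSMG1 (31.3 to 79.5 CPM) and of PSMB2 (193 to 252 CPM) lie below all 8 control points at 6.25 nM.

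The members were split by TGACNNNGC alone, and the CCAAT and GATA words were not used for a split. The median log2 fold change with and without the match was 0.06 and -0.02 with siGATA1-1, and -0.05 and -0.12 with siGATA1-2. The 14 genes with a TGACNNNGC match had a median log2 fold change of -0.06 in the mean effect, with 9 of 14 negative. The 22 tested members whose windows lacked it had a median of -0.06 as well, with 15 of 22 negative. Both groups of genes spanned 0, from -0.87 to 0.28 with the match and from -0.72 to 0.26 without it.

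The wider pathway was read from 6 lists of genes. No gene was called in the 3 GATA1 comparisons among 18 tested shuttle factors, receptors and 26S-associated proteins, 14 genes of assembly and transcriptional control, or 6 genes of ubiquitin and its activating enzymes. NFE2L1, the factor that restores proteasome gene expression after proteasome inhibition, had a mean effect of 0.56 (SE 0.24, adjusted p = 0.204), and its relative NFE2L2 one of 0.10 (SE 0.21, adjusted p = 0.873). POMP, the maturation factor of the 20S core, stood at 233 ± 51.5 CPM with siGATA1-1 against 247 ± 60.5 and at 199 ± 67.9 CPM with siGATA1-2 against 285 ± 74.7, with a mean effect of -0.31 (SE 0.15, adjusted p = 0.286). UBB, a polyubiquitin gene, had a mean effect of 0.05 (SE 0.10, adjusted p = 0.866).

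Over all genes, 1.75% were called higher with siGATA1-2 and 2.6% in the mean effect. In the list of antigen processing and interferon control, 1 of 11 tested genes was called, and it rose. This was B2M, the light chain of MHC class I molecules, which present the peptides that proteasomes make. B2M stood at 1824, 1683, 1698 and 1644 CPM with siGATA1-1 against 1177 to 1528 CPM (median 1305), and at 1793, 1708, 1646 and 2208 CPM with siGATA1-2 against 1115 to 1587 CPM (median 1317). All 8 GATA1 siRNA libraries lay above every control of their dose. Of all genes, 0.89% lay wholly above their controls with siGATA1-1 and 1.29% with siGATA1-2, and the share that did so at both doses was not computed. B2M rose by 0.47 (SE 0.11, adjusted p = 0.00485) with siGATA1-2 and by 0.41 (SE 0.08, adjusted p = 1.05e-04) in the mean effect, while the siGATA1-1 value of 0.35 (SE 0.11) was not called (adjusted p = 0.172). With siGATA1-1 it was called by limma voom (0.38, adjusted p = 0.00859) and by edgeR against all 16 controls (0.36, adjusted p = 0.0364). The siGATA1-2 call was lost without siGATA1-2 replicate 4, at 0.36 (adjusted p = 0.132), and the mean-effect call was kept in all 35 alternative fits. The myeloid marker sums given beside PSMB9 moved with B2M too, and their part was not tested. IRF1, an interferon-induced transcription factor, had a mean effect of 0.40 (SE 0.33, adjusted p = 0.598). TAP1, a peptide transporter gene, has start sites 488 and 1431 bases from that of PSMB9 in the RefSeq tables. It had too few counts to be tested, at 0 to 14.9 CPM with siGATA1-1 against 0 to 15.2, and at 10.4 to 32.4 CPM with siGATA1-2 against 0 to 56.8.

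Of 12 tested genes for p97 and its cofactors, 1 was called, with siGATA1-2, where 1.75% of all genes were called higher. This was NPLOC4, which helps the p97 ATPase extract ubiquitinated proteins. It stood at 88.0, 116, 344 and 255 CPM with siGATA1-2 against 64.4 to 134 CPM (median 98.5), and rose by 0.96 (SE 0.28, adjusted p = 0.0328). With siGATA1-1 the value was -0.52 (SE 0.27, adjusted p = 0.793). The call was lost without siGATA1-2 replicate 3 (0.63, adjusted p = 0.316) or replicate 4 (0.75, 0.255), the 2 high libraries, and without siNC-1 replicate 6 (0.90, 0.0625), siNC-1 replicate 7 (0.90, 0.0696) or siNC-2 replicate 5 (0.92, 0.057) at 6.25 nM.

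Of 13 tested E2 and E3 enzymes known from erythroid maturation, 1 was called, in the mean effect, where 2.6% of all genes were called higher. This was RANBP9, a member of the CTLH ubiquitin ligase, at 167 ± 43.9 CPM with siGATA1-1 against 118 ± 13.0 and 226 ± 69.3 CPM with siGATA1-2 against 144 ± 32.6. It rose by 0.55 (SE 0.17, adjusted p = 0.0376) in the mean effect. Neither siRNA alone gave a call, at 0.44 (SE 0.23, adjusted p = 0.81) with siGATA1-1 and 0.66 (SE 0.24, adjusted p = 0.124) with siGATA1-2. The mean-effect call was lost in 8 of 24 fits without 1 library, with the lowest value of 0.46 (adjusted p = 0.166) without siGATA1-2 replicate 4. The others were siGATA1-1 replicates 1 (0.0646) and 3 (0.148), siGATA1-2 replicate 2 (0.0882), siNC-1 at 25 nM replicate 3 (0.0553), siNC-1 at 6.25 nM replicates 5 (0.0526) and 8 (0.052), and siNC-2 at 6.25 nM replicate 7 (0.0553), with the adjusted p of each in parentheses. Each of the 6 lists held genes in both directions in each comparison, and their median log2 fold changes in the mean effect ran from -0.06 to 0.22, beside -0.00 over all genes.

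The comparisons among the controls gave the background for the proteasome genes. Between siNC-1 and siNC-2 no member was called by edgeR, DESeq2 or limma voom at either dose, where the percentage of all genes called was 0 at 25 nM and 0 at 6.25 nM. At an unadjusted p under 0.05, there were 0 members at 25 nM, against 1.28% of all genes. At 6.25 nM there was 1, PSMD8, against 3.01% of all genes. Between 25 and 6.25 nM of control siRNA, no member was called by edgeR or limma voom, while 1.41% of all genes were. At an unadjusted p under 0.05 there were 9 members, 4 higher and 5 lower at 25 nM, against 13.2% of all genes. The largest of these was PSMD12 (0.70, SE 0.33) in the upward direction and PSMG1 downward. DESeq2 called 1 member there, PSMF1, whose edgeR value was 0.50 (SE 0.16, adjusted p = 0.112), from 268 ± 30.9 CPM at 25 nM and 192 ± 41.4 CPM at 6.25 nM. PSMB7 was the member called when siNC-1 replicate 7 at 6.25 nM was left out, and its value in the fit of all libraries was 0.40 (SE 0.13, adjusted p = 0.118).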

How the data were processed

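The deposited table holds raw counts per gene symbol for 24 K562 libraries. Per the submitters' processing notes, the authors aligned reads with STAR 2.5.6b to hg19, and the treatment of multi-mapping reads, strand and molecular identifiers was not given in the sources used here. Libraries were grouped by the siRNA and dose in their labels. Counts were fitted over all 24 libraries with edgeR 4.0.16 in R 4.3.3 (TMM scaling, robust quasi-likelihood F test, Benjamini-Hochberg adjustment) after the default expression filter (minimum count 10, minimum total 15), which left 6738 genes holding 93.7% of counts. Dose-matched siNC-1 and siNC-2 means served as controls. CPM are counts divided by the TMM-scaled library size and multiplied by 1e6. DESeq2 1.42.0, limma voom (limma 3.58.1), other scalings, filters, control sets, a replicate block and leaving out each library were alternatives. The script was tested on simulated counts. The biological coefficient of variation was 0.263. No libraries were identical, and 36 replicate pairs differed by more than sampling noise (chi-square divided by its degrees of freedom, 1.86 to 3.31). Spreadsheet conversion had turned 27 symbols into dates (0.123% of counts), none a proteasome gene.

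Genes named in full were those called in a GATA1 comparison, the 6 catalytic standard and immunoproteasome subunits, the activators and PSMF1, the 5 members with the largest mean effect, pathway genes called in a GATA1 comparison, and NFE2L1, NFE2L2, POMP, UBB, TAP1 and IRF1. Some other genes under this rule are not reported here. The members, gene lists and marker lists were chosen with earlier results of these data known. With 88290 counts in the shallowest library, a gene at 0 there could still stand at up to 3 counts.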

Additional observations from a re-analysis of the deposited data

Results flagged for a closer look

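In 11 of 137 groups of 4 libraries examined, 1 library stood far from the other 3. Chance gives about 1 in 20 for values that vary continuously. A group with 3 libraries at 0 and 1 above 0 is always flagged, so that rate does not apply to the PSMB8 and PSMB9 entries below. PSMB7 was 868 CPM in siNC-2 replicate 1 at 25 nM against 442 to 495 CPM in the others of its group, and PSMB2 was 90.7 CPM in the same library against 231 to 241. That library was the shallowest, at 88290 counts, and these values were 67 counts of PSMB7 and 7 of PSMB2. GATA1 was 242 CPM in siGATA1-1 replicate 3 against 300 to 308 CPM. PSMB8 was 14.5 CPM in siGATA1-2 replicate 2 and 3.60 CPM in siNC-1 replicate 8 at 6.25 nM, with 0 in the rest of each group. PSMB9 was 2.27 CPM in siNC-2 replicate 4 at 25 nM and 5.17 CPM in siNC-2 replicate 6 at 6.25 nM, again with 0 in the rest, and each of these last 3 values was 1 count.

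The summed activator level was 667 CPM in siGATA1-2 replicate 3 against 352 to 387 CPM, and 307 CPM in siNC-2 replicate 3 at 25 nM against 427 to 450 CPM. The summed assembly chaperone level was 856 CPM in siNC-2 replicate 5 at 6.25 nM against 597 to 630 CPM. The ratio of the 19S to the 20S sum was 0.677 in siNC-1 replicate 1 at 25 nM against 0.589 to 0.603.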

How the results depend on the processing

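The counts of called proteasome genes kept their values in the GATA1 comparisons under 11 alternative settings. Leaving out 1 library at a time gave 0 to 0 members called higher in each GATA1 comparison, 0 to 0 called lower with siGATA1-1, 1 to 1 called lower with siGATA1-2 and 1 to 2 called lower in the mean effect. The value of 2 came without siGATA1-2 replicate 1, where PSMD6 joined PSMG1. Between control doses the range was 0 to 1, with PSMB7 called without siNC-1 replicate 7 at 6.25 nM, and DESeq2 called 1, PSMF1. In the difference between siRNAs and between siNC-1 and siNC-2 it was 0 to 0. Of 1365 refitted values of named members, 1364 kept their side of the threshold, 1 crossed it (PSMD6) and 59 values that were not called changed sign.

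Over all genes, siGATA1-1 gave 26 higher and 23 lower calls, from 10 and 11 without siGATA1-1 replicate 4 to 69 and 48 against all 16 controls. With siGATA1-2 there were 118 higher (51 with siNC-1 alone, 167 against all 16 controls) and 86 lower (48 with siNC-1 alone, 156 without siGATA1-2 replicate 2), and in the mean effect 175 higher (97 with siNC-1 alone) and 127 lower (80 with siNC-1 alone). Against all 16 controls the difference between siRNAs gave 9 higher and 6 lower calls in place of 0. Control doses gave 46 higher (78 with the replicate block) and 49 lower (27 without the filter). The causes were not tested.

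Over 28 same-numbered pairs the correlation of deviations ran from -0.09 to 0.30 and was over 0.1 in 5. Among these were siNC-1 with siNC-2 at replicates 3 (0.17) and 4 (0.30) at 25 nM. At 6.25 nM they were replicates 7 (0.17) and 8 (0.26), and the other same-dose control pairs ran from -0.03 to 0.05. Pairs with different numbers were not compared, so this check cannot decide whether replicate numbers pair the libraries. siGATA1-2 shares no number with its controls. With the replicate block the members called remained 0 with siGATA1-1 and 1 (PSMG1) with siGATA1-2 (-1.51, edgeR adjusted p = 0.00096) and in the mean effect, beside 157 higher and 91 lower over all genes with siGATA1-2.

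Among the pathway genes, the NPLOC4 call was lost with limma voom, no filter, only the groups compared, either control siRNA alone and all 16 controls (adjusted p 0.0674 to 0.219), and the RANBP9 mean-effect call with limma voom, no filter and either control siRNA alone (0.0536 to 0.225). Gained calls were RANBP9 with siGATA1-2 against all 16 controls (0.79, adjusted p = 0.0164) and B2M with siGATA1-1 by limma voom (0.00859) and against all 16 controls (0.0364). B2M with siGATA1-2 was not called with siNC-1 alone (0.0797). At 2.17 to 13.0 CPM per count, small changes of the weakest members were not detectable.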
